A study of Homo sapiens with 14 samples.

Results

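Nutrient withdrawal was measured here as the difference between 9 h in Earle's balanced salt solution (EBSS) and 0 h in MiaPaCa2, a line derived from a human pancreatic carcinoma. The comparison uses 4 of the 14 whole-transcript arrays of the series: the siCtrl and siNupr1 arrays at 9 h, and the siCtrl and siNupr1 arrays at 0 h, chosen by their labels and paired by the transfected small interfering RNA (siRNA). It covers 11026 genes, those left of 18377 with a probe cluster after the dimmest 40% were dropped. siCtrl is a scrambled siRNA, and siNupr1 targets NUPR1, which encodes a small chromatin-associated stress protein, so each time point holds 1 array of control cells and 1 of cells transfected against NUPR1. All cells of the 4 arrays had been grown in DMEM with 10% serum and transfected with 140 ng of siRNA. At 9 h the medium was EBSS, which per the labels has no glucose, amino acids or growth factors. The 0 h arrays name DMEM in their titles but EBSS for 0 h in their source field. They were taken as unstarved, and the medium of those 2 arrays is in doubt. The siNupr1 array at 9 h carries sip9 in its title while the other siNupr1 arrays carry sip8; its source field gives siNupr1, by which it was paired. Further arrays of siCtrl and siNupr1 after 3 h and 6 h in EBSS make up a Nupr1 set of 8 with these 4. An NF-kB set of 6 holds cells with siCtrl, or with an siRNA against RELA or RELB, each after 9 h of EBSS and of a mock medium that the labels do not describe.

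The labels list these siRNAs against NUPR1, without saying which was on the arrays; they are shown since silencing is what separates the 2 pairs, as the RNA strand given, without its overhang.
siNupr1: ggaggacccaggacaggau
siNupr1#2: aggucgcaccaagagagaa

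As background, cells read the loss of amino acids in parallel ways. Uncharged transfer RNA activates the kinase GCN2, which slows general translation while favouring that of the transcription factor ATF4, and ATF4 with its C/EBP partners drives genes for amino acid uptake, synthesis and transfer RNA charging. Falling amino acids and growth factors also switch off the kinase complex mTORC1 at the lysosome, which releases autophagy and the transcription factors TFEB and TFE3. Loss of serum growth factors holds cells in G1, before the E2F transcription factors turn on the genes of DNA synthesis.

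All values are log2 levels on the arrays. Where 4 levels are given, the order is siCtrl then siNupr1. Differences are 9 h minus 0 h ± SE over n = 2 pairs of arrays, from a limma fit to all 14 arrays, so that a rise of 1 is a doubling; rose and fell are used of genes with a Benjamini-Hochberg adjusted p under 0.05 over all tested genes. Each siRNA and time was measured on 1 array, and nothing in the labels ties an array to a culture of its own. The SE and p-values therefore rest on departures of the 14 arrays from an additive model of siRNA and condition. These departures are not a spread among replicates. They may hold technical spread as well as responses that differ between siRNAs in either set. The array medians lay between 5.67 and 5.84, with the lowest on the siCtrl 9 h array. NUPR1 lay at 6.27 and 5.59 at 0 h and 7.30 and 6.64 at 9 h, so it was lower with siNupr1 at both times and higher at 9 h with both siRNAs. Its level of 5.59 on the siNupr1 0 h array was under the filter's level of 5.805. Epithelial keratin genes KRT8 and KRT18 stood between 12.73 and 13.12 on the 4 arrays, while the epithelial adhesion genes CDH1 and EPCAM were among the 2 of 9 ductal and epithelial markers dropped as dim. Of the markers of other cell types, 4 of 10 for fibroblasts, 2 of 10 for leukocytes, 1 of 7 for endothelium and 1 of 8 for acinar cells passed the filter, and COL1A2, a collagen gene, was the 1 of these 8 that changed.

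After 9 h, 1013 genes had risen (9.19% of those tested) and 1662 had fallen (15.1%). The 9 h counts of every list below are to be read beside these shares. Changes of at least 2-fold were more even, at 104 genes up (0.943%) and 100 genes down (0.907%). Of the 2675 genes called, 2674 differed in the same direction in both pairs. In 2540 of them the 0 h and 9 h levels did not overlap, against 5137 genes (46.6%) without overlap among all tested. The calls were made on the mean of these same pairs, so both counts follow largely from the calls and are no separate check. The same holds wherever the 0 h and 9 h levels of a called gene are described below as apart. Across genes the differences of the pairs had a Pearson correlation of 0.61. The split between rises and falls depended on single arrays: with the siCtrl 0 h array left out there were 557 rises and 1082 falls, with the siCtrl 9 h array left out 628 and 1506, and with the siNupr1 9 h array left out, the one with the differing title, 1081 and 1083. The calls of large changes were lost less often. Of those of at least 2-fold, 103 of 104 rises and 99 of 100 falls stayed called when any 1 of the 14 arrays was left out. The exceptions were the vault RNA gene VTRNA1-3 and TMTC3, named here because they were the exceptions. Genes picked for a large called difference keep the call more readily, so these counts follow largely from the pick and are no separate check. The median difference over all tested genes was -0.04, and it was -0.03 in the siCtrl pair and -0.07 in the siNupr1 pair.

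**Figure D1:**
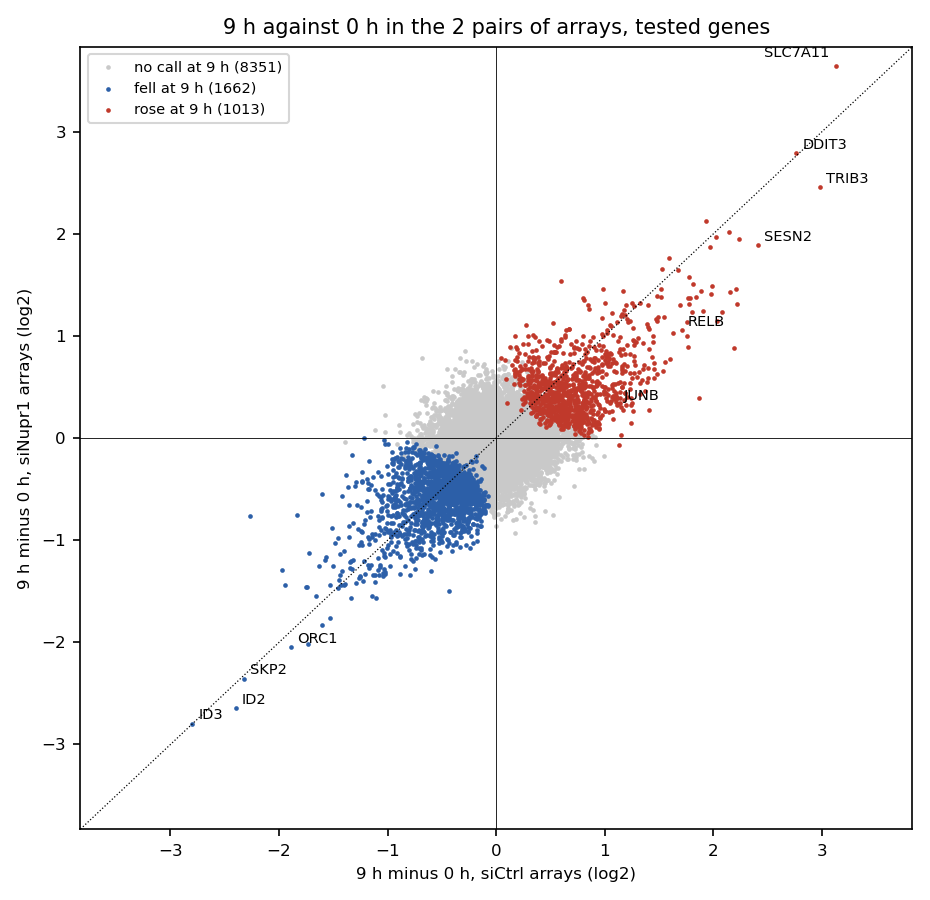
The 9 h minus 0 h difference (log2) of each tested gene in the siCtrl pair (x axis) against that in the siNupr1 pair (y axis), coloured by call; the dotted line marks equal differences. Called genes lie in the upper right and lower left, with SLC7A11, DDIT3 and TRIB3 at one end and ID3, ID2 and SKP2 at the other; 1013 rose and 1662 fell.

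The 3 largest rises were of genes known from the response to lost amino acids. SLC7A11, the cystine importer, lay at 6.64 and 6.14 at 0 h and 9.77 and 9.79 at 9 h. Its rise of 3.39 ± 0.17 (adjusted p = 8.88e-11) was the largest of any tested gene, and the 0 h and 9 h arrays did not overlap. DDIT3, which encodes the C/EBP family factor CHOP, lay at 6.71 and 6.42 at 0 h and 9.47 and 9.21 at 9 h, a rise of 2.78 ± 0.19 (adjusted p = 7.94e-09). TRIB3, a pseudokinase that binds ATF4 and restrains AKT, lay at 7.29 and 7.40 at 0 h and 10.28 and 9.86 at 9 h, a rise of 2.72 ± 0.17. In each of these genes both 9 h arrays stood far above both 0 h arrays, with either siRNA. The wider list of stress transcription factors and kinases had 14 of 20 members up and 3 down, with a median of 0.66. PPP1R15A, a phosphatase subunit that restores translation, rose by 1.66 ± 0.17. The bZIP genes CEBPB and CEBPG, whose products pair with ATF4 or CHOP, rose by 1.52 ± 0.15 and 1.30 ± 0.14. NUPR1 itself rose by 1.04 ± 0.14 (adjusted p = 2.93e-05), by 1.02 in the siCtrl pair and 1.06 in the siNupr1 pair; its call was lost when the siRNA term was left out of the fit for the Nupr1 set (adjusted p = 0.0853).

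Of 10 tested members of a further list of targets of this response, some of them secreted or at the cell surface and others inside the cell, 9 rose and 0 fell, with a median of 1.35. CHAC1, an enzyme that degrades glutathione, lay at 7.19 and 6.72 at 0 h and 9.16 and 8.59 at 9 h and rose by 1.92 ± 0.19. VEGFA, the vascular growth factor, lay at 7.48 and 7.15 at 0 h and 9.29 and 8.66 at 9 h and rose by 1.66 ± 0.15. GDF15, a stress cytokine, lay at 6.08 and 6.35 at 0 h and 7.60 and 7.73 at 9 h and rose by 1.45 ± 0.14. The 9 h levels of all 3 were above the 0 h levels without overlap. KLHL24, a ubiquitin ligase adaptor, rose by 2.09 ± 0.14, and TNFRSF10B, a death receptor for TRAIL, by 1.54 ± 0.12. CREBRF, a regulator of CREB3, rose by 2.03 ± 0.16 and NIBAN1, a stress-induced gene, by 1.58 ± 0.16; neither is on a list.

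**Figure D2:**
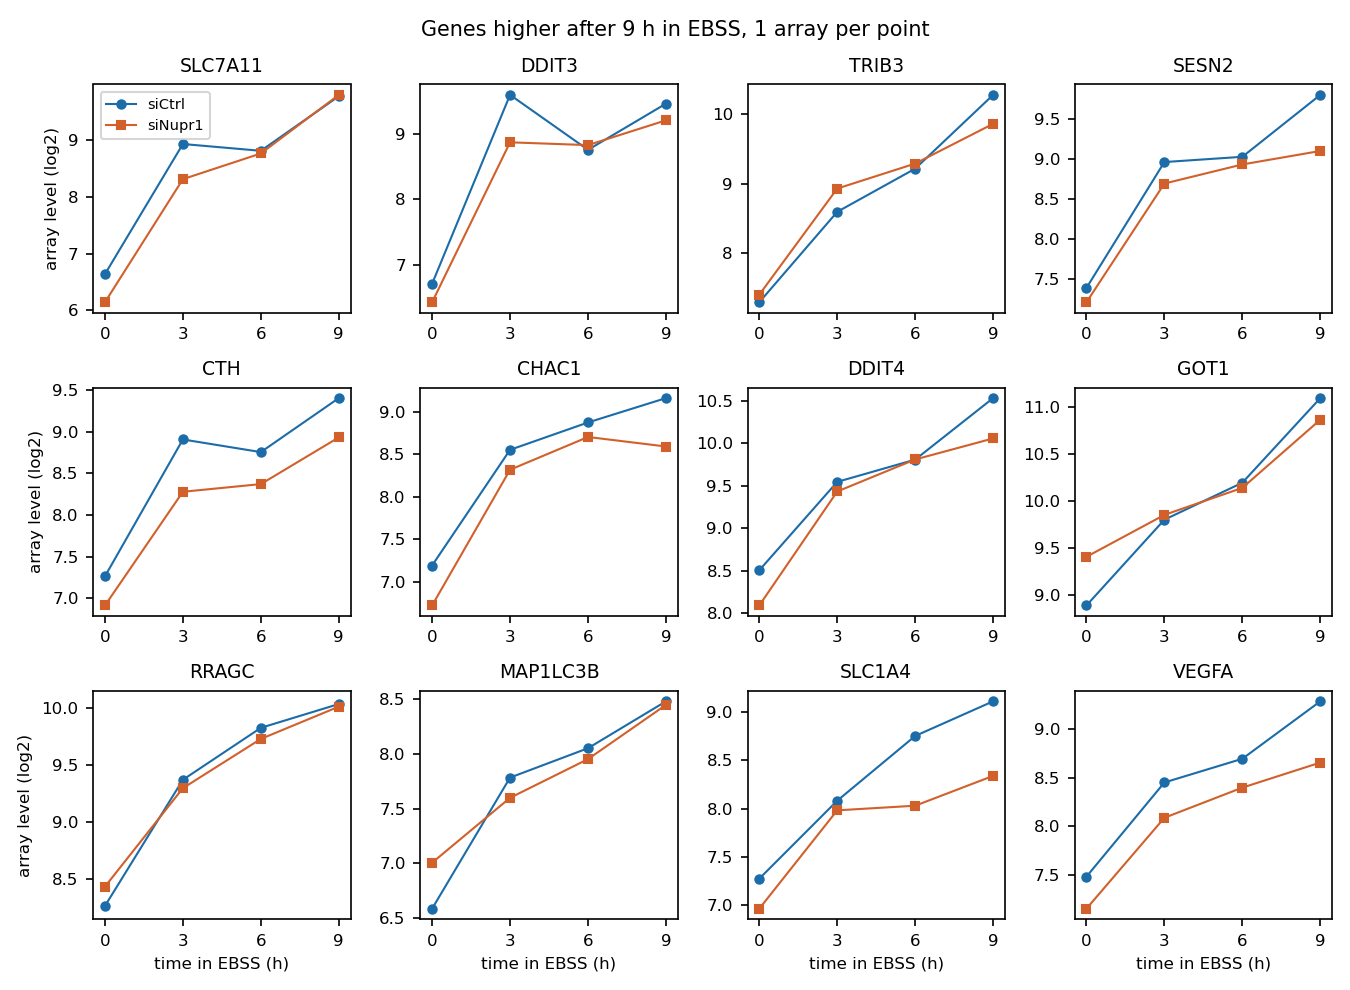
Array level (log2, y axis) of 12 genes that rose, against time in EBSS (h, x axis), for siCtrl (circles) and siNupr1 (squares), 1 array per point. In each panel both 9 h points lie above both 0 h points; SLC7A11 goes from 6.64 and 6.14 to 9.77 and 9.79.

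Most tested genes for the uptake and synthesis of amino acids rose. Of 18 tested transporters 12 rose and 1 fell (median 0.71). SLC1A4, a carrier of alanine and serine, lay at 7.27 and 6.96 at 0 h and 9.11 and 8.34 at 9 h and rose by 1.61 ± 0.17. SLC6A9, the glycine carrier, lay at 7.47 and 7.43 at 0 h and 9.38 and 8.68 at 9 h and rose by 1.57 ± 0.15. SLC43A1 (large neutral amino acids) rose by 1.57 ± 0.13 and SLC38A1 (glutamine) by 1.22 ± 0.10. SLC7A5, the light chain of the leucine exchanger, rose by 0.82 ± 0.10. Of 18 tested genes for making amino acids and one-carbon units, 11 rose and 2 fell (median 0.48). CTH, which makes cysteine from cystathionine, lay at 7.26 and 6.91 at 0 h and 9.41 and 8.93 at 9 h and rose by 2.08 ± 0.19. GOT1, the cytosolic aspartate aminotransferase, lay at 8.89 and 9.41 at 0 h and 11.10 and 10.87 at 9 h and rose by 1.83 ± 0.15. ASNS, asparagine synthetase, lay at 10.31 and 10.11 at 0 h and 11.46 and 11.32 at 9 h and rose by 1.18 ± 0.10. The serine branch was called at smaller sizes, with MTHFD2, a mitochondrial folate enzyme, at 1.06 ± 0.10 and PSAT1, a serine synthesis aminotransferase, at 0.82 ± 0.12.

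The synthetases that charge transfer RNA had different counts by compartment. Of 19 cytosolic synthetases 11 rose and 2 fell (median 0.34), the falls being 0 without the siNupr1 9 h array and 1 without most other single arrays. The rises were led by CARS1 for cysteine (8.92 and 9.14 at 0 h and 10.54 and 10.17 at 9 h, a rise of 1.33 ± 0.15), SARS1 for serine (1.0 ± 0.10), AARS1 for alanine (0.92 ± 0.09), TARS1 for threonine (0.87 ± 0.11) and GARS1 for glycine (0.67 ± 0.09). Of the 16 mitochondrial synthetases 0 rose and 6 fell (median -0.29), a count that was 3 without the siNupr1 0 h array and 2 without the siNupr1 9 h array. LARS2, the mitochondrial leucine enzyme, lay at 7.91 and 7.98 at 0 h and 7.24 and 6.84 at 9 h and fell by 0.90 ± 0.15. YARS2, for tyrosine, differed by -0.55 ± 0.11 (adjusted p = 0.00139), a call lost in the fit of the 4 arrays alone. The difference between these lists was not tested as such; their counts stand beside 9.19% of all genes up and 15.1% down.

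Promoter windows are shown here because these genes moved together. In windows of 300 bases (250 before to 50 after the RefSeq start site, GRCh38.p14), available for 8847 tested genes, the core of the composite ATF4 and C/EBP element, TGATGNAA on either strand, was present in 1.53% of all genes, in 29 of 827 genes that rose (3.51%), in 9 of the 83 that rose at least 2-fold (10.8%), in 1.39% of genes that fell, in 4.44% of genes that fell at least 2-fold, and in 6 of 16 cytosolic synthetases (37.5%). The same letters were found in 18.8% of 16 transporters and 23.1% of 13 synthesis genes. The runs below show the match in capitals, in the orientation of the gene, for 5 genes of uptake, synthesis, charging and glutathione breakdown. They come from chr15:40953222-40953309 (plus strand), chr7:97872429-97872516 (minus strand), chr10:99430775-99430862 (minus strand), chr11:3057418-3057465 (minus strand) and chr12:46266513-46266560 (minus strand), and the match starts 209, 68, 198, 2 and 4 bases before the start site.
CHAC1: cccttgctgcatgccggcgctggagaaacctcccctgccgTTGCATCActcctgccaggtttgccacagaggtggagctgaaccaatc
ASNS: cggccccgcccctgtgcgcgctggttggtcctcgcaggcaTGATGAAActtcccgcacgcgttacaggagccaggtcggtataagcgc
GOT1: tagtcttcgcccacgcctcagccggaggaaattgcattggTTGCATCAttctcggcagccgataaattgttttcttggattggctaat
CARS1: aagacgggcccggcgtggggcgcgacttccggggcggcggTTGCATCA
SLC38A1: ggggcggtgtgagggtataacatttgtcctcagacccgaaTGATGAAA
The gene-strand match read TGATGAAA in ASNS and SLC38A1 and TTGCATCA, the other strand of the core, in CHAC1, GOT1 and CARS1. DDIT3, TRIB3, SESN2, CTH and GDF15 held no match in these windows. A match is a description of the letters, matches of the motifs searched may share bases, and where a gene has several start sites the first listed was read.

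Among genes that hold back mTORC1, SESN2 and DDIT4 had the largest rises. SESN2, a leucine-sensitive inhibitor of the complex, lay at 7.39 and 7.21 at 0 h and 9.79 and 9.10 at 9 h and rose by 2.15 ± 0.22. DDIT4, which acts through the TSC complex, lay at 8.50 and 8.09 at 0 h and 10.53 and 10.05 at 9 h and rose by 2.00 ± 0.18. Both 9 h arrays were above both 0 h arrays in each. Of 16 tested members of the list of restraints 5 rose and 0 fell, beside 9.19% of all genes up and 15.1% down. FNIP1 (0.94 ± 0.13) and its partner FLCN (0.90 ± 0.12) were among the rises. Their complex also acts in favour of mTORC1, so not every rise on this list is of an inhibitor. Of 16 subunits and lysosomal activators of mTORC1 3 rose and 0 fell, a count of few genes beside the same shares. RRAGC, a Rag GTPase that brings mTORC1 to the lysosome, lay at 8.26 and 8.43 at 0 h and 10.03 and 10.01 at 9 h and rose by 1.67 ± 0.11, more than any other member of that list.

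Of 35 autophagy genes 15 rose and 3 fell (median 0.27), beside 9.19% of all genes up and 15.1% down. The falls were 1 without the siNupr1 0 h array and 1 without the siNupr1 9 h array. MAP1LC3B, whose lipid-linked product coats autophagosomes, lay at 6.59 and 7.01 at 0 h and 8.48 and 8.44 at 9 h and rose by 1.66 ± 0.15. WIPI1, which binds phosphoinositide at forming autophagosomes, rose by 1.19 ± 0.14, the cargo receptor gene SQSTM1 by 1.11 ± 0.10 and the LC3 relative GABARAPL1 by 1.08 ± 0.15. RB1CC1, the scaffold of the initiating kinase complex, rose by 1.08 ± 0.16. Of 26 lysosomal genes and TFE factors 8 rose and 0 fell, beside the same shares. The rises were 3, near the share of all genes, without the siCtrl 0 h array and 5 without the siCtrl 9 h array. NPC1, which moves cholesterol out of lysosomes, rose by 1.14 ± 0.12 and NEU1, a sialidase, by 0.79 ± 0.12. The letters CACGTG, the E-box read by TFE factors and also by MYC, stood in 8 of 18 promoter windows of this list (44.4%) and in 10.6% of all.

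Growth signalling genes went both ways, and their counts stand beside 9.19% of all genes up and 15.1% down. Of 25 immediate early genes 16 rose and 0 fell (median 0.53), 10 of them without the siCtrl 9 h array. KLF4, a zinc finger factor, lay at 7.14 and 7.19 at 0 h and 8.82 and 8.84 at 9 h and rose by 1.66 ± 0.16. EGR1 lay at 8.65 and 8.59 at 0 h and 10.42 and 9.48 at 9 h and rose by 1.33 ± 0.20. CCN1, a matrix signalling protein, rose by 1.06 ± 0.20, IER3 by 1.0 ± 0.14 and KLF6 by 0.95 ± 0.14. The median over the list was 0.76 in the siCtrl pair and 0.29 in the siNupr1 pair, without a test of that gap. Inhibitors that feed back on ERK signalling had 6 of 14 members up and 0 down, 3 without the siCtrl 0 h array and 3 without the siNupr1 9 h array; ERRFI1, an inhibitor of EGF receptors, rose by 0.94 ± 0.10 and SPRED2, an inhibitor of RAS signalling, by 0.80 ± 0.12. EREG, an EGF receptor ligand, lay at 9.71 and 9.41 at 0 h and 11.03 and 10.73 at 9 h and rose by 1.32 ± 0.10, and HBEGF, another ligand, by 0.92 ± 0.18.

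The deepest falls were of ID genes, targets of BMP signalling whose products block differentiation factors. ID3 lay at 9.23 and 9.32 at 0 h and 6.43 and 6.53 at 9 h and fell by 2.80 ± 0.12 (adjusted p = 4.61e-12). ID2 lay at 8.46 and 8.68 at 0 h and 6.06 and 6.03 at 9 h and fell by 2.52 ± 0.22. ID1 lay at 9.22 and 9.25 at 0 h and 8.59 and 8.49 at 9 h and fell by 0.69 ± 0.12, the smallest of the 3. In the list of ID genes and the BMP-SMAD pathway 8 of 13 members fell and 2 rose, and the falls were 4 without the siCtrl 0 h array, 3 without the siCtrl 9 h array and 5 without the siNupr1 0 h array. Beyond the ID genes the calls were smaller, such as the BMP decoy receptor gene BAMBI at -0.61 ± 0.17 and SMAD9 at -0.71 ± 0.18, with both calls lost without the siCtrl 9 h array (adjusted p = 0.16 and 0.0936), that of BAMBI also without the siNupr1 0 h array (0.206) and that of SMAD9 without the siCtrl 0 h array (0.124).

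Other growth pathways had small counts, to be read beside 9.19% of all genes up and 15.1% down; those of the Notch and WNT lists are close to these shares or rest on 1 to 3 genes. The TGF-beta list had 3 of 10 members up and 0 down, 0 without the siCtrl 0 h array and 1 without the siCtrl 9 h array, the YAP-TEAD list 3 of 15 up and 0 down, 1 without the siCtrl 0 h array and 1 without the siCtrl 9 h array, and the Notch list 1 of 12 up and 1 down. The 1 Notch fall was of the ligand gene JAG1 (-0.76 ± 0.13). The WNT list had 3 of 16 up, 1 without the siCtrl 0 h array and 1 without the siCtrl 9 h array, and 2 down: AXIN1, a scaffold of the complex that degrades beta-catenin, rose by 0.92 ± 0.18 and LGR4, a receptor for R-spondins, fell by 0.94 ± 0.13. FOXO targets and insulin signalling had 8 of 18 up and 1 down (median 0.36). In that list YPEL2 (1.59 ± 0.17), YPEL5 (1.17 ± 0.14), the cyclin gene CCNG2 (1.04 ± 0.13) and the repressor gene BCL6 (0.93 ± 0.13) rose, while the PI3-kinase subunit gene PIK3R3 fell by 0.92 ± 0.14. ARRDC3, an arrestin family gene, fell by 1.0 ± 0.19. TXNIP, its glucose-regulated relative, differed by 0.66 ± 0.14 (adjusted p = 0.00134, and 0.0689 without the siCtrl 9 h array).

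Clock genes had 8 of 15 up and 0 down, with 5 up without the siCtrl 0 h array and 5 without the siCtrl 9 h array. This count and that of the MYC network below stand beside 9.19% of all genes up and 15.1% down. NFIL3, a bZIP repressor, lay at 7.15 and 7.43 at 0 h and 8.61 and 8.59 at 9 h and rose by 1.31 ± 0.16. NR1D2, a nuclear receptor repressor, lay at 7.19 and 6.94 at 0 h and 8.44 and 8.27 at 9 h and rose by 1.29 ± 0.12. CRY1, a core repressor, rose by 0.88 ± 0.13. In the MYC network 4 of 10 rose and 0 fell: the antagonists of MYC, MXD1 (1.07 ± 0.19) and MNT (0.94 ± 0.15), rose, and so did MYC itself (0.81 ± 0.11).

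RELB led the NF-kB genes. It encodes a subunit of the alternative pathway, lay at 7.23 and 6.69 at 0 h and 8.94 and 7.74 at 9 h and rose by 1.38 ± 0.17 (adjusted p = 8.66e-06), by 1.71 in the siCtrl pair and 1.05 in the siNupr1 pair. NFKB2, the gene of its usual partner, rose by 0.72 ± 0.13 (a call lost without the siRNA term), and the inhibitor gene NFKBIB by 0.76 ± 0.15. In all, 5 of 19 subunits and inhibitors rose and 1 fell, beside 9.19% of all genes up and 15.1% down. The rises were 3 without the siCtrl 0 h array and 3 without the siCtrl 9 h array. The other counts of this paragraph are to be read beside the same shares. Of 9 tested cytokine genes 3 rose and 0 fell. LIF, an IL-6 family cytokine, lay at 7.38 and 7.11 at 0 h and 9.53 and 8.53 at 9 h and rose by 1.79 ± 0.14, and the chemokine gene CXCL2 rose by 0.99 ± 0.15. In the TNF receptor family 4 of 13 rose and 3 fell (with 1 fall left without the siNupr1 0 h array): the rises were led by TNFRSF10B and included TNFRSF9 (1.08 ± 0.15, lost without the siRNA term) and TNFRSF12A, the TWEAK receptor (0.86 ± 0.12). Interferon-stimulated genes had 1 of 18 up, under the share of all genes, and 5 down. The falls were 3 without the siCtrl 0 h array and 3 without the siCtrl 9 h array, near the share of all genes. USP18, which removes ISG15, fell by 0.98 ± 0.15 and IFIT5, an RNA-binding antiviral gene, by 0.96 ± 0.16.

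Survival genes moved in part, and their counts stand beside 9.19% of all genes up and 15.1% down. Of 19 p53 targets 8 rose and 1 fell, but the median was 0.02, and SESN2, TNFRSF10B and GDF15, the members with the largest rises, stand on the other lists too. PLK3, a stress kinase, rose by 1.19 ± 0.15. In the BCL2 family 6 of 15 rose and 1 fell, the rises being 3 without the siCtrl 0 h array. The rises ran both ways in function, with BCL2L1, which protects from apoptosis, at 0.73 ± 0.12, and PMAIP1, which promotes it, at 0.69 ± 0.14 (lost without the siRNA term). Of 14 caspases and regulators 1 rose and 1 fell, neither above those shares, and the rises were 0 without the siNupr1 0 h or the siNupr1 9 h array. CASP2, an initiator caspase, lay at 9.13 and 9.00 at 0 h and 8.24 and 7.67 at 9 h and fell by 1.11 ± 0.12. MLKL, the effector of necroptosis, fell by 1.39 ± 0.14. BTG1, a gene that restrains proliferation, rose by 1.74 ± 0.14.

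DNA synthesis genes fell together. Of 43 tested replication genes 38 fell and 0 rose, with a median of -0.80 beside -0.04 for all genes, and 32 fell without the siNupr1 9 h array. They supplied 17 of the 100 falls of at least 2-fold. ORC1, the origin recognition ATPase, lay at 8.36 and 8.19 at 0 h and 6.47 and 6.14 at 9 h and fell by 1.97 ± 0.13 (adjusted p = 3.59e-09). POLA2, a subunit of the priming polymerase, lay at 8.80 and 8.94 at 0 h and 7.07 and 6.93 at 9 h and fell by 1.87 ± 0.13. GINS2, of the replicative helicase, lay at 8.78 and 8.89 at 0 h and 7.18 and 7.06 at 9 h and fell by 1.72 ± 0.14. In all 3 both 9 h arrays were under both 0 h arrays. The origin firing genes CDC7 and MCM10 fell by 1.60 ± 0.15 and 1.60 ± 0.14, the licensing factor gene CDC6 by 1.42 ± 0.12, and MCM3, of the MCM2-7 helicase ring, by 1.43 ± 0.12. SKP2, the ubiquitin ligase subunit that removes the CDK inhibitor p27, lay at 9.38 and 8.90 at 0 h and 7.06 and 6.54 at 9 h and fell by 2.34 ± 0.14, the third largest fall of all.

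**Figure D3:**
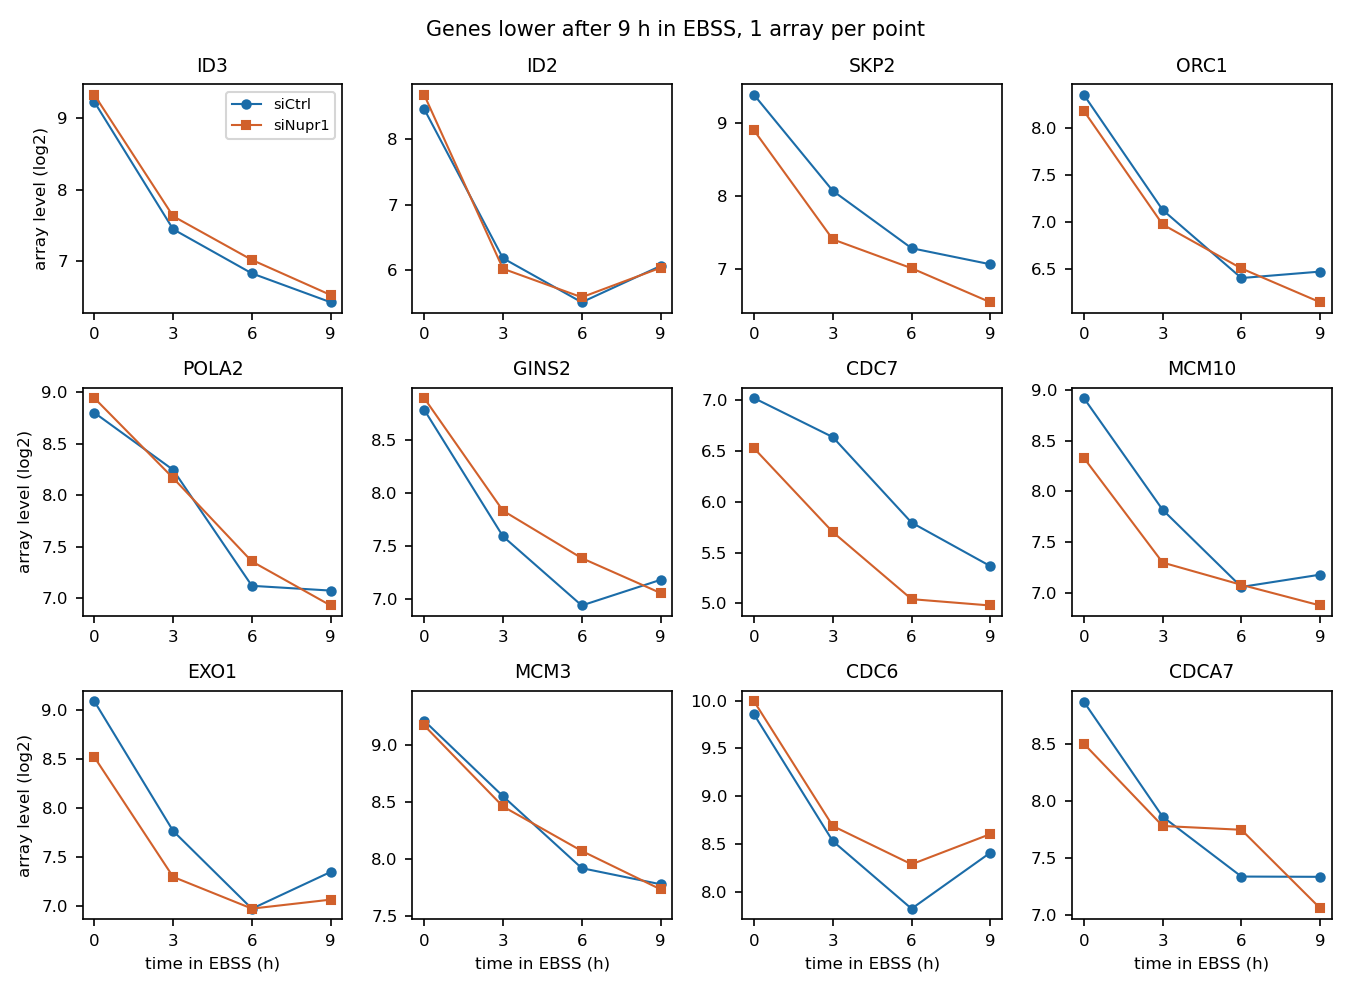
Array level (log2, y axis) of 12 genes that fell, against time in EBSS (h, x axis), for siCtrl (circles) and siNupr1 (squares), 1 array per point. In each panel both 9 h points lie under both 0 h points; the 100 genes that fell at least 2-fold had a median difference of -0.79 at 3 h, -1.11 at 6 h and -1.21 at 9 h.

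The E2F core TTTNNCGC, on either strand, stood in the promoter windows of 22 of 39 replication genes (56.4%), in 10.6% of all 8847 genes, in 12.9% of the genes that fell, in 20% of those that fell at least 2-fold and in 6.06% of 33 mitosis genes. The runs below give 5 replication genes, with the match in capitals and cut at the start site or the end of the match. They come from chr11:65261869-65261956 (plus strand), chr16:85688955-85689025 (minus strand), chr6:52284739-52284956 (minus strand), chr1:35769976-35770023 (minus strand) and chr20:5126634-5126721 (minus strand) of GRCh38.p14, and MCM3 holds 3 matches.
POLA2: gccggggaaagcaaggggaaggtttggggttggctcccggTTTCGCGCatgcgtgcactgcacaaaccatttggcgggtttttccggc
GINS2: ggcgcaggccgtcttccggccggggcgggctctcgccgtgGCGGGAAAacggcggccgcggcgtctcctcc
MCM3: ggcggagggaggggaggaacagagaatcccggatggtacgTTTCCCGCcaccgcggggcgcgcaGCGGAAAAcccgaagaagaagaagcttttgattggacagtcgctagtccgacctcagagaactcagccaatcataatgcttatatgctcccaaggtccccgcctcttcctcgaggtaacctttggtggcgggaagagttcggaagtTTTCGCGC
CLSPN: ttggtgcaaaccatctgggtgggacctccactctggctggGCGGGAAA
PCNA: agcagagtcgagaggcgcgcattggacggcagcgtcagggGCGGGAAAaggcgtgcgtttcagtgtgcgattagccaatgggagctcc
CLSPN, a checkpoint adaptor, differed by -1.37 and PCNA, the sliding clamp, by -1.30; both were picked for their match after their values were seen. Of the other falls named above, CDC6 held these letters in its window, while ORC1, CDC7, MCM10 and SKP2 did not. E2F7 also fell without holding them.

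Genes that work beside replication are given by their own counts, which were not tested against that of the replication list. These counts stand beside 15.1% of all genes down and 9.19% up. Recombination, Fanconi and checkpoint genes had 16 of 25 down and 0 up (median -0.64), led by the exonuclease gene EXO1 (9.09 and 8.52 at 0 h and 7.34 and 7.06 at 9 h, a fall of 1.60 ± 0.14) and the helicase gene BRIP1 (a fall of 1.42 ± 0.16). Nucleotide synthesis genes had 10 of 22 down and 0 up, 6 without the siCtrl 0 h array; RRM2, of ribonucleotide reductase, fell by 0.95 ± 0.11, UMPS, of pyrimidine synthesis, by 0.88 ± 0.13 and TYMS, thymidylate synthase, by 0.74 ± 0.11. Among E2F factors 5 of 9 fell and 1 rose, the falls being 3 without the siCtrl 0 h array: E2F8 (-1.09 ± 0.14), E2F7 (-1.03 ± 0.15) and E2F2 (-0.99 ± 0.13) had the largest. Of 17 G1 cyclins, kinases and inhibitors 6 fell and 1 rose, with a median of -0.05. The falls went down to 4 when single arrays were left out. CDC25A, the phosphatase that activates CDK2, fell by 0.96 ± 0.18 and CCND3, a D-type cyclin, by 0.65 ± 0.12. Mitosis genes had 19 of 37 down and 0 up (median -0.32), 12 without the siNupr1 9 h array, with the kinetochore genes SPC25 (-1.27 ± 0.17) and SPC24 (-1.09 ± 0.14) and the kinesin gene KIF20A (-1.07 ± 0.13) lowest. Replication-dependent histones, by contrast in count, had 4 of 25 up and 1 down, the fall being under the share of all genes. The rises were 3 to 5 when single arrays were left out. H3C3 rose by 0.75 ± 0.14, and these near-identical copies can share probes, so single members are uncertain.

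Other large falls were of genes outside the lists. CDCA7, a chromatin gene of S phase, fell by 1.49 ± 0.16, WDR76 by 1.46 ± 0.14 and LMNB1, lamin B1, by 1.42 ± 0.11. FIGNL1, an ATPase of homologous recombination, fell by 1.52 ± 0.22. POGLUT2, an O-glucosyltransferase, fell by 1.63 ± 0.16, BRI3BP by 1.65 ± 0.12, the tumour antigen gene PRAME by 1.46 ± 0.13 and the phospholipase gene PLCE1 by 1.45 ± 0.16. BRINP3 fell by 1.41 ± 0.13, MINPP1, an inositol phosphate phosphatase, by 1.39 ± 0.14 and CROT, of peroxisomal fatty acid oxidation, by 1.38 ± 0.15. The tubulin pseudogene TUBA3FP fell by 1.69 ± 0.14, and its probes may read its parent genes. Rises outside the lists were SAT1, of polyamine breakdown (1.70 ± 0.13), IFRD1 (1.68 ± 0.12), SGTB, a co-chaperone gene (1.59 ± 0.13), and the long noncoding RNA gene PAX8-AS1 (1.76 ± 0.20).

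In 5 lists of the gene expression machinery 0 members changed by 2-fold or more, and their counts stand beside 15.1% of all genes down and 9.19% up. Of 38 Mediator and RNA polymerase II subunits 9 fell and 2 rose, the falls being 5 without the siNupr1 0 h array and 5 without the siNupr1 9 h array; MED20 fell by 0.92 ± 0.13. Of 33 splicing factors 11 fell and 1 rose, 6 of the falls without the siCtrl 0 h array; SRSF7 fell by 0.88 ± 0.13 and PRPF4 by 0.82 ± 0.10. Of 35 nuclear pore and export genes 12 fell and 3 rose, 7 and 0 without the siCtrl 0 h array, and 0 of the rises without the siCtrl 9 h array; NUP37 fell by 0.57 ± 0.12, a call lost in the fit of the 4 arrays alone. Ribosome biogenesis genes had 6 of 35 down, 3 without the siCtrl 0 h array, and 4 up, both near the shares of all genes; UBTF, a factor of RNA polymerase I, fell by 0.69 ± 0.11. Translation factors had 7 of 39 up and 5 down; the rises were 2 without the siCtrl 0 h array and 3 without the siCtrl 9 h array and the falls 3 without the siCtrl 0 h array, 2 without the siNupr1 0 h array and 3 without the siNupr1 9 h array. EIF2B1, a subunit of the exchange factor on which eIF2 phosphorylation acts, fell by 0.76 ± 0.11.

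Ribosomal proteins, too, had different counts in the cytosolic and mitochondrial lists, a gap that was not tested. Of 35 cytosolic ribosomal proteins 1 rose (RPL28, 0.43 ± 0.11, adjusted p = 0.147 and 0.106 without the siCtrl 0 h and the siCtrl 9 h array) and 0 fell, with a median of 0.00. Of 52 mitochondrial ribosomal proteins 20 fell and 0 rose (median -0.31), 17 without the siNupr1 9 h array; MRPL20 (-0.85 ± 0.13), MRPL44 (-0.82 ± 0.14) and MRPS33 (-0.78 ± 0.13) fell most. Respiratory chain subunits had 14 of 43 down and 0 up (median -0.24), 8 without the siNupr1 9 h array, and the complex I genes NDUFB10 (8.79 and 9.35 at 0 h and 7.76 and 8.04 at 9 h, a fall of 1.17 ± 0.13) and NDUFB3 (a fall of 1.04 ± 0.17) fell most. TCA cycle genes had 5 of 23 down and 0 up, 2 without the siCtrl 0 h array, 2 without the siNupr1 0 h array and 2 without the siNupr1 9 h array. These shares stand beside 15.1% of all genes down.

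Chaperones of the cytosol and of the endoplasmic reticulum (ER) are given side by side, without a test between the lists. Their counts stand beside 15.1% of all genes down and 9.19% up. Of 21 cytosolic heat shock proteins 13 fell and 1 rose (median -0.33), the falls being 6 without the siCtrl 0 h array and 8 without the siCtrl 9 h array. DNAJA1, a co-chaperone of HSP70, lay at 9.56 and 9.41 at 0 h and 8.24 and 8.21 at 9 h and fell by 1.25 ± 0.12, followed by HSPA4L (-0.99 ± 0.16) and BAG3 (-0.89 ± 0.12). Of 28 ER chaperones and ER degradation genes 10 fell, 6 without the siCtrl 0 h array and 6 without the siCtrl 9 h array, and 6 rose. HERPUD1, of ER-associated degradation, rose by 1.24 ± 0.13 and XBP1, a transcription factor of ER stress, by 1.14 ± 0.13, while SEC24D, of the ER export coat, fell by 0.90 ± 0.13. Of 28 proteasome subunits 9 fell and 0 rose, 4 without the siCtrl 0 h array and 2 without the siNupr1 0 h array.

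The counts for sugar and lipid genes stand beside 9.19% of all genes up and 15.1% down, and several rest on few calls. Of 22 genes of glycolysis and glucose uptake 4 rose and 0 fell, the rises being 2 without the siCtrl 0 h array and 2 without the siCtrl 9 h array; SLC2A3, the high-affinity glucose carrier GLUT3, lay at 8.41 and 8.35 at 0 h and 9.68 and 9.64 at 9 h and rose by 1.28 ± 0.14. Of 21 fatty acid genes 4 rose and 2 fell, the falls being 4 without the siCtrl 9 h array and 0 without either the siNupr1 0 h or the siNupr1 9 h array, with PLIN2, which coats lipid droplets, up by 1.17 ± 0.13 (lost without the siRNA term) and CPT1A, which admits fatty acids to mitochondria, by 0.86 ± 0.14. Of 16 cholesterol genes 1 rose and 2 fell. Hypoxia targets had 8 of 17 up and 3 down, the falls being 1 without the siCtrl 9 h array and 1 without the siNupr1 9 h array; their largest rises, DDIT4 and VEGFA, are those described above, and KDM3A, a demethylase gene, rose by 0.71 ± 0.13. NRF2 and antioxidant targets had 8 of 21 up and 3 down, with 5 rises without the siNupr1 9 h array and 1 fall without either that array or the siCtrl 0 h array. After SLC7A11 the largest were MAFG, a partner of NRF2 (1.22 ± 0.13), and NFE2L2, the gene of NRF2 itself (0.82 ± 0.12).

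Of 15 metallothionein and zinc transport genes 9 rose and 0 fell (median 0.43), beside 9.19% of all genes up and 15.1% down. MT1M lay at 7.11 and 7.35 at 0 h and 8.59 and 8.74 at 9 h and rose by 1.44 ± 0.13, and MT1X rose by 0.79 ± 0.11; metallothionein genes are near-identical copies whose probes may be shared, so the family rather than the member is measured. SLC30A1, the zinc exporter, lay at 8.35 and 8.22 at 0 h and 9.59 and 9.37 at 9 h and rose by 1.19 ± 0.12. The letters of the metal response core, TGCNCNC, were in 60% of the 10 windows of this list and in 64.6% of all. Of 18 keratin and junction genes 3 rose and 0 fell, beside the same shares, CLDN1 (1.25 ± 0.15) and CLDN4 (0.80 ± 0.14) most. Of 20 collagens, laminins and integrins 1 rose and 3 fell, with the falls close to the share of all genes and the rise under it. The rises were 0 without the siCtrl 0 h or the siCtrl 9 h array. COL1A2 lay at 10.67 and 10.99 at 0 h and 9.77 and 9.97 at 9 h and fell by 0.96 ± 0.15.

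Among small noncoding RNA genes on the arrays 0 fell. Of 86 small nucleolar RNA genes 14 rose and 0 fell (median 0.19), of 15 small nuclear RNA genes 7 rose and 0 fell (median 0.34), and of 36 microRNA genes 3 rose and 0 fell, beside 9.19% of all genes that rose, to which the microRNA share is close. The nucleolar count was 3 without the siCtrl 9 h array and 6 without the siNupr1 0 h array, and the nuclear count was 3 without the siCtrl 9 h array and 4 without either 0 h array. These genes have near-identical copies and host genes whose RNA the same probes can read, so single members are uncertain. Of 179 long noncoding RNA genes 17 rose, also close to the share of all genes, and 8 fell, and 6 of them rose at least 2-fold.

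**Figure D4:**
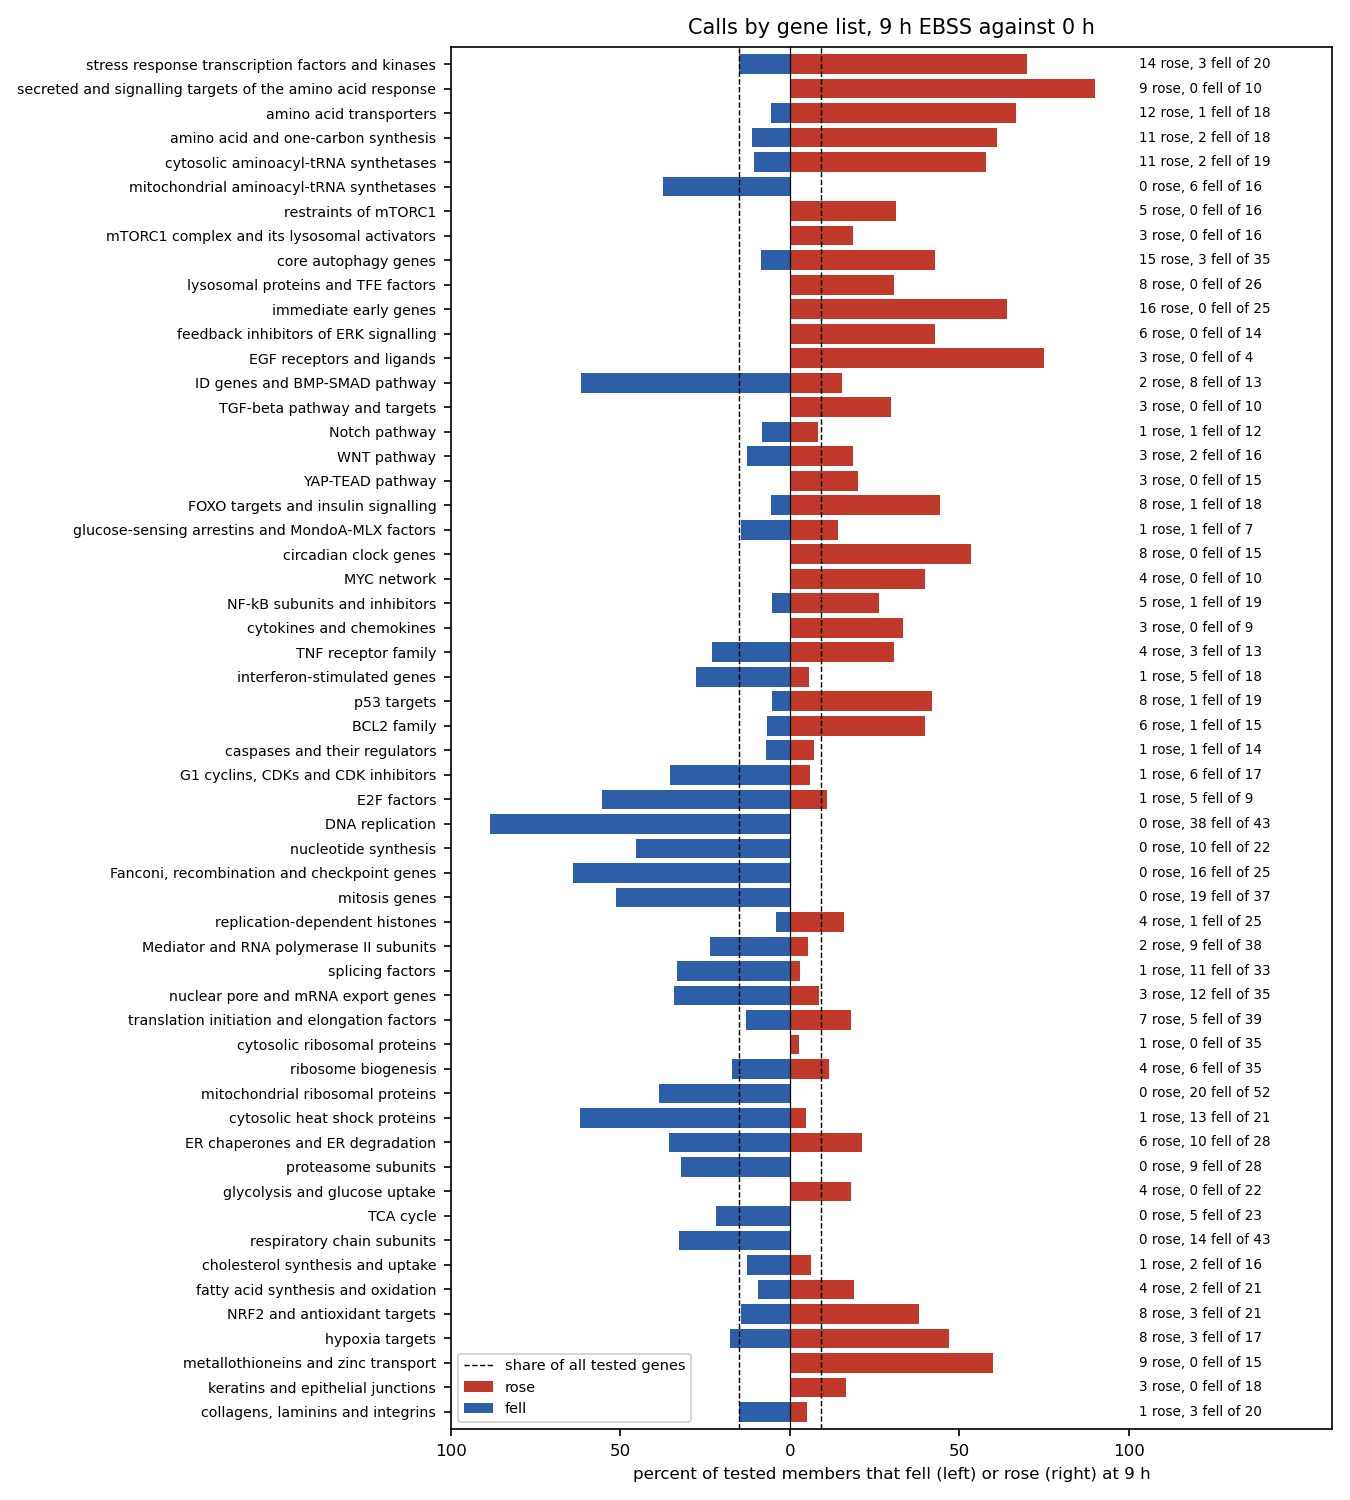
Percent of the tested members of each gene list that rose (right, red) or fell (left, blue) at 9 h, with counts at the right edge and the shares of all tested genes, 9.19% and 15.1%, as dashed lines. DNA replication stands at the left with 38 of 43 down, and targets of the amino acid response at the right with 9 of 10 up.

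Of the 1013 genes that rose at 9 h, 282 were also called up at 3 h and 594 at 6 h, and of the 1662 that fell 680 and 1159 were called down. The large changes had more calls at the earlier times. Of the 104 genes up at least 2-fold, 86 were also called up at 3 h and 99 at 6 h, with medians of 0.72, 0.88 and 1.22 at 3, 6 and 9 h. Of the 100 down at least 2-fold, 85 and 100 were called at 3 h and 6 h. The 3 time points share the 0 h arrays, so these counts are not independent of each other. Of the immediate early genes, 19 of 25 were called up at 3 h and 16 at 9 h, while autophagy genes went from 5 of 35 at 3 h to 12 at 6 h and 15 at 9 h. Mitosis genes had 19 of 37 down at 3 h, 33 at 6 h and 19 at 9 h.

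In the NF-kB set other cells were in EBSS for 9 h and were compared with mock medium, over n = 3 pairs, and shares no array with the 4 used here. There 2489 genes rose (22.6%) and 3233 fell (29.3%). Of the genes that fell here 1020 also fell there (61.4% of 1662 and 31.6% of 3233) and 33 rose. Of the genes that rose here 423 also rose there (41.8% of 1013 and 17.0% of 2489) and 226 fell. Among changes of at least 2-fold, 89 of 100 falls were called in the same direction there, 0 in the opposite one and 11 not at all, and 65 of 104 rises in the same, 14 in the opposite and 25 not at all. DDIT3 (1.85 ± 0.16), TRIB3 (1.36 ± 0.13), CHAC1 (1.23 ± 0.15), ID3 (-1.43 ± 0.09) and SKP2 (-1.67 ± 0.11) were called in the same direction in EBSS against mock. Each had a smaller estimate there than at 9 h against 0 h. The estimate there is a mean over the siCtrl, siRelA and siRelB pairs. In that order DDIT3 differed by 2.49, 1.54 and 1.52, CHAC1 by 1.87, 0.63 and 1.19, and ID3 by -1.49, -1.35 and -1.44. In the siCtrl pair here these genes differed by 2.76, 1.97 and -2.80. The gaps between siRNAs there were not tested. EGR1 differed by 1.58 ± 0.16 there and by 1.33 ± 0.20 here. Whole lists differed in how far they repeated. In EBSS against mock 31 of 43 replication genes fell and 2 rose, and 8 of 18 synthesis genes rose and 2 fell. Of 18 transporters 8 rose and 6 fell there (median 0.17), and of 19 cytosolic synthetases 4 rose and 9 fell (median -0.17). In each of these last lists 13 members had a difference that depended on the set.

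The difference between the sets was tested in the same fit. The 9 h difference was higher than EBSS against mock in 1804 genes (16.4%) and lower in 894 (8.11%). The count of lower genes moved most with single arrays, to 343 without the siNupr1 0 h array, 1364 without the siCtrl 9 h array and 523 without the siCtrl array in EBSS or in mock of the NF-kB set, and with siRelA in EBSS or in mock left out to 531 or 537. SLC7A11 was the clearest, with 3.39 ± 0.17 here and -0.36 ± 0.14 there, a gap of 3.74 ± 0.22 (adjusted p = 3.19e-09). SLC38A1 (1.22 ± 0.10 here, -0.48 ± 0.08 there), SLC30A1 (1.19 ± 0.12, -0.70 ± 0.09), EREG (1.32 ± 0.10, -0.35 ± 0.08) and SGTB (1.59 ± 0.13, -0.36 ± 0.10) were called in opposite directions. So were genes with smaller rises here, the kinase gene SMG1 of nonsense-mediated decay (0.84 ± 0.11, -0.78 ± 0.09), the GTPase regulator gene ARHGAP29 (0.90 ± 0.13, -0.94 ± 0.10), USP34, a deubiquitinase (0.55 ± 0.13, -1.57 ± 0.10), PCF11, of transcript end processing (0.53 ± 0.12, -1.51 ± 0.10), and CDC42BPA, a cytoskeletal kinase (0.55 ± 0.13, -1.43 ± 0.10). The 9 h rises of USP34 (adjusted p = 0.0673 and 0.0704 without the siNupr1 0 h and 9 h arrays), PCF11 (0.056 without the siCtrl 0 h array) and CDC42BPA (0.0706 without the siNupr1 0 h array) each depended on an array. The set comparison also differs in its control, since mock was held for 9 h and the control here is 0 h. The siRNAs pooled in each set differ as well. Set, control, medium and siRNA therefore cannot be told apart in it.

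Genes that were higher here than in the NF-kB set had long gene bodies. The median genomic span was 63.5 kb for the 1804 genes higher here and 24.8 kb for all tested genes with a span. Of the 1804, 1504 had fallen in EBSS against mock, beside 29.3% of all genes. At 9 h 491 had risen, beside 9.19% of all genes, 145 had fallen and 1168 were not called. The 1804 were picked by the gap between the 2 comparisons, so an excess of falls there and rises here was built in. The 14 genes that rose at least 2-fold here and fell there had a median span of 81.4 kb, and the 65 that rose in both 13 kb. Across 11015 genes, which are not independent, the Spearman correlation of span with the difference was -0.02 at 9 h against 0 h and -0.42 for EBSS against mock. The part of span in the gap was not tested; with the trend over span taken out of every array, 1625 genes were higher here and 727 lower.

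**Figure D5:**
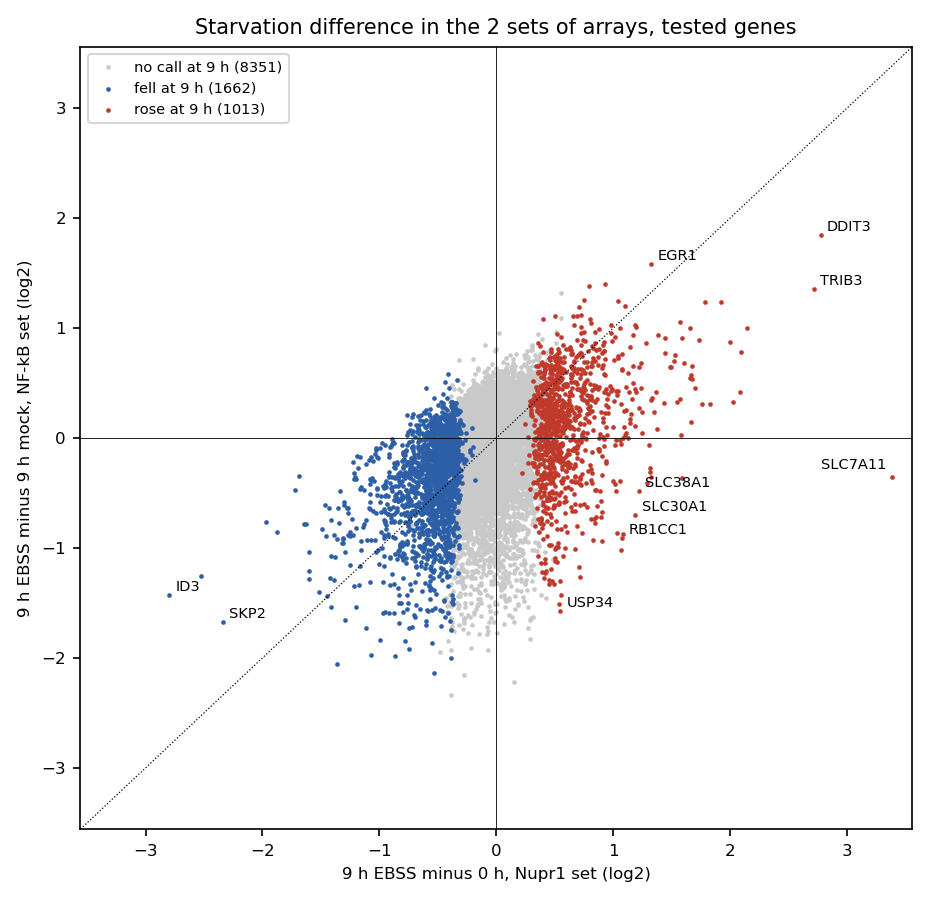
The 9 h EBSS minus 0 h difference in the Nupr1 set (log2, x axis) against the EBSS minus mock difference in the NF-kB set (log2, y axis) for each tested gene, coloured by the 9 h call; the dotted line marks equal differences. SLC7A11 lies at 3.39 and -0.36, and 226 of the 1013 genes that rose at 9 h were called lower in the NF-kB set.

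Whether silencing NUPR1 changed the 9 h difference was asked with a term for the siNupr1 minus siCtrl gap at 9 h against its mean at 0, 3 and 6 h. Of 11026 genes 0 passed with limma, with 1603 (14.5%) at an unadjusted p under 0.05 and a smallest adjusted p of 0.245. That share is above the fraction of 0.05 that would be found with no dependence in any gene. The source of the excess was not tested. The median SE of this term was 0.19, against 0.13 for the 9 h difference, so the term is the less precise of the 2. The 0 calls therefore do not show that the siRNAs gave equal differences. It rests on 1 pair of arrays at 9 h, 1 of which has the differing title. The smallest p-values belonged to SNORD34, a small nucleolar RNA (-1.14 ± 0.20), C4orf46 (1.05 ± 0.19), LINC01783 (1.30 ± 0.25), RBM38 (-0.88 ± 0.17), JUND (-0.84 ± 0.17), MIR139 (0.89 ± 0.18), PRSS57 (0.93 ± 0.20), LRRC3 (-0.85 ± 0.18), ZNF485 (1.31 ± 0.28) and JUNB (-0.75 ± 0.16). JUNB and JUND, AP-1 transcription factor genes, differed by 1.12 and 0.95 in the siCtrl pair and by 0.33 and 0.09 in the siNupr1 pair. RELB had a term of -0.70 ± 0.23 (adjusted p = 0.257) and NUPR1 of 0.29 ± 0.22 (adjusted p = 0.527). Among the 104 genes that rose at least 2-fold the mean difference was 1.51 in the siCtrl pair and 1.22 in the siNupr1 pair, and among the 100 that fell -1.32 and -1.25.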

How the data were processed

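RNA of MiaPaCa2 cells (200 ng per sample) was labelled with a whole-transcript kit and hybridized to 1 array per siRNA, medium and time, 14 in all. The deposited table holds log2 values per probe cluster. The authors computed them with RMA (background correction, quantile normalization and summary of probes), per the submitters' processing notes, which also name limma. Versions and genome build: not given in the sources used here. Of 28869 clusters, 19310 had 1 symbol in the platform annotation, 1752 had several and 7807 were not listed; symbols were updated through Entrez identifiers and a GRCh38.p14 gene table, which gave 18377 genes, with the brightest of several clusters kept for 685. The 40% with the lowest mean (under 5.805) were dropped.

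A linear model of set, siRNA and condition (9 columns, 5 residual degrees of freedom, 19.6 after moderation) was fitted with lmFit and eBayes with an intensity trend (limma 3.58.1, R 4.3.3). It was also run on simulated data with independent noise around the same additive model. Such data cannot show how the p-values hold where additivity fails. Replicate numbers are absent from the labels; the number of arrays limits the precision. Genes with a Benjamini-Hochberg adjusted p under 0.05 were called. Dependence on the set was a contrast of the same design. Dependence on the siRNA came from a separate fit with an added column for siNupr1 at 9 h. The comparison, the 61 gene lists, the motifs and the alternatives were chosen with earlier results of these data known. Named genes are NUPR1, RELB, the 25 largest rises and falls with 1 sign in both pairs, list members with the largest calls, and the 10 smallest p-values of the siRNA and set comparisons; others are marked. Differences of single pairs are values without a test.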

Additional observations from a re-analysis of the deposited data

Results flagged for a closer look

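The starvation difference was not the same in the sets of arrays, by a test of the difference itself in the joint limma fit. The 9 h difference in the Nupr1 set was higher than EBSS against mock in 1804 genes and lower in 894. The 10 genes with the smallest p-values were all higher in the Nupr1 set, by 3.74 for SLC7A11, 1.70 for SLC38A1, 2.05 for PCF11, 2.12 for USP34, 1.89 for SLC30A1, 1.67 for EREG, 1.98 for CDC42BPA, 1.95 for SGTB, 1.84 for ARHGAP29 and 1.62 for SMG1 on the log2 scale. Each of these 10 genes was called higher at 9 h against 0 h and lower in EBSS against mock. Groups of 4 or more arrays were not available, so single arrays could not be set against their group.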

How the results depend on the processing

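The counts of genes that rose (1013) and fell (1662) kept within 1.5 times under no filter, a 60% filter, quantile normalization, the Nupr1 set alone, no trend, robust moderation, the mean of clusters and removal of the span trend, between 919 and 1242 rises and between 1321 and 1716 falls. Quantile normalization gave 1242 rises and 1387 falls, so that rises were 47.2% of the calls against 37.9%. The counts were 490 and 785 with the 4 arrays alone, 614 and 903 with array weights, and 524 and 828 without the siRNA term. Leaving out 1 array gave 557 to 1081 rises and 1082 to 1664 falls. The genes whose difference depends on the siRNA numbered 0 to 1 without 1 array, and could not be fitted without either 9 h array. Those whose difference depends on the set (2698) numbered 1743 to 2994 without 1 array, the lowest without the siNupr1 0 h array. The cause of these shifts was not tested, beside the fewer arrays in some fits. Of 269 named genes called at 9 h, 194 kept the call in all 14 fits without 1 array and 187 under all other settings, and 0 of the called ones changed sign; RBM38, not called, was called at -0.41 without the siCtrl 9 h array and at 0.47 without the siNupr1 9 h array. Without the siRNA term the 9 h calls of NUPR1, NFKB2, PLIN2, PMAIP1, TNFRSF9, CDC42BPA and USP34 were lost, with the 4 arrays alone those of YARS2, NUP37, RPL28, PCF11, CDC42BPA and USP34, and with array weights that of BAMBI. Of 29 list counts of only 1 or 2 called genes, 24 moved by over 1.5 times without some single array. The pairing by siRNA is the siRNA term of the fit.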
